A study of Mus musculus with 2 samples.

Results

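The 38 immediate early and stress genes described here were chosen by name from 32285 annotated mouse genes, and all 38 were present in both libraries. They fall into 7 groups by role: 8 AP-1 factors, 3 EGR factors, 3 NR4A receptors, 3 KLF factors, 7 other early genes, 9 feedback inhibitors and 5 heat shock genes. Their levels were compared across cell types between 1 injured and 1 uninjured droplet single-cell RNA library of soft tissue around the Achilles tendon.

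Both libraries came from mice labelled Vegfd-OE, which carried the driver allele Hoxa11 wt/CreERT2, the activator allele R26 wt/LSL-rtTA and the transgene TetO-Vegfd. In this design the Hoxa11 locus, active in mesenchymal cells of the lower limb, drives a tamoxifen-inducible Cre, Cre releases rtTA from a stop cassette, and rtTA drives the Vegfd transgene, so both libraries carried the transgene and neither is a wild-type control. Libraries of control mice without overexpression were not analysed here. Male and female mice aged 8 to 12 weeks had a burn with tenotomy, and tissue was taken 7 days later. The injured library came from the tenotomy site, and the uninjured library from the limb on the other side of mice that had also been treated, so it is not untreated tissue. The number of animals behind each library is not stated in the labels. Tissue of both groups was digested for 45 minutes at 37 °C in collagenase and dispase before the cells were loaded. The labels name the Achilles tendon as the source, and tenocyte markers were found, but most of the cells carried markers of connective tissue, vessels and immune cells.

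Immediate early genes are transcribed within minutes of a stimulus without new protein synthesis, from factors such as SRF and CREB that already sit in the cell. AP-1 (FOS and JUN proteins), EGR, NR4A and KLF proteins are transcription factors that then act on later genes, while feedback inhibitors such as ZFP36, which destabilises AU-rich mRNAs, and the DUSP phosphatases, which switch off MAP kinases, end the response. Heat shock genes encode chaperones under the control of HSF1. Warm enzymatic digestion is itself known to induce many of these genes, and both libraries passed through it, so levels here are those of dissociated cells.

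The deposited matrices held 10691 injured and 6850 uninjured barcodes, with 253050820 and 101685524 unique molecular identifiers (UMIs, 1 per captured mRNA molecule). Of these, 9151 and 4700 cells were kept, with medians of 17492 and 15772 UMIs. The libraries stood apart in mitochondrial share, which was above 10% in 7.49% of injured and 26.4% of uninjured barcodes and had medians of 2.92% and 4.93% in the cells kept. They shared 19 barcodes, 8 of them in both sets of kept cells. Levels are given as UMIs per 1000000 UMIs of the cell set (CPM), and ratios as log2(injured over uninjured) after adding 5 CPM to both sides, which shrinks the ratio of weakly detected genes. A gene was counted as lower or higher when the ratio was 2-fold or more. Each group had 1 library, so there is no replicate check, no test was made, and the 95% intervals cover counting error alone. Differences between these libraries cannot be told apart from differences between animals, limbs or preparations.

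Over all kept cells, the 38 genes together made up 0.736% of injured and 1.12% of uninjured UMIs, or 7357 against 11247 CPM. Of the 38 genes, 27 had a ratio below 0, but only Klf2, Klf4, Hspb1 and Egr1 were at least 2-fold lower, and Fosl1 was at least 2-fold higher. The shares among 9644 genes at a mean of 10 CPM or more were 6.17% lower and 4.52% higher, against which the count of 4 of 38 is read. The median ratio of the 38 genes was −0.55, against −0.03 for all genes tested. The lower injured level was therefore mostly a shift of less than 2-fold when all cells were pooled. The summed difference was widest in cells above 30000 UMIs and reversed in cells under 10000 UMIs, as given below. The mix of cells also differed, with 993 injured and 4 uninjured neutrophils among the cells kept, and its part in the pooled values was not tested. With the classes compared below weighted equally, 13 of the 38 genes were lower and 0 higher. The shares of all genes above belong to pooled cells, and none is set beside this count.

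The same comparison was made within 7 cell classes named from fixed markers, and in each of them the summed level of the 38 genes was lower in the injured library. It was 4525 against 6266 CPM in mesenchymal cells (fibroblast, tenocyte and chondrocyte markers), 7026 against 11992 in vascular endothelium, and 12420 against 18042 in mononuclear phagocytes. It was 7892 against 10018 in pericytes or smooth muscle and 10356 against 13793 in dendritic cells. The widest differences were in Schwann cells, at 6815 against 22046 CPM, and in lymphatic endothelium, at 3050 against 10215 CPM. These 2 were also the classes with the fewest cells, 100 and 170 Schwann cells and 84 lymphatic cells in each library.

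At least 2-fold lower were 27 of 38 genes in lymphatic endothelium, where 9.75% of all genes tested were lower, and 23 of 38 in Schwann cells, where 8.71% were. In dendritic cells 10 of 38 were lower (6.03% of all genes), and in vascular endothelium 8 of 38 (4.35%). The counts were 5 of 38 in phagocytes (3.99%), 4 of 38 in pericytes or smooth muscle (6.1%) and 3 of 38 in mesenchymal cells (6.23%), the last of these close to its background. Genes at least 2-fold higher were few: 2 in vascular endothelium (4.26% of all genes), 2 in phagocytes (3.03%), 1 each in mesenchymal cells (4.05%), pericytes or smooth muscle (5.96%), Schwann cells (10.7%) and lymphatic endothelium (10.2%), and none in dendritic cells (5.36%). The medians over the 38 genes were −1.54 in Schwann cells and −1.40 in lymphatic endothelium, and between −0.46 and −0.22 in the other 5 classes, while the medians of all genes lay between −0.04 and 0.09.

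**Figure D1:**
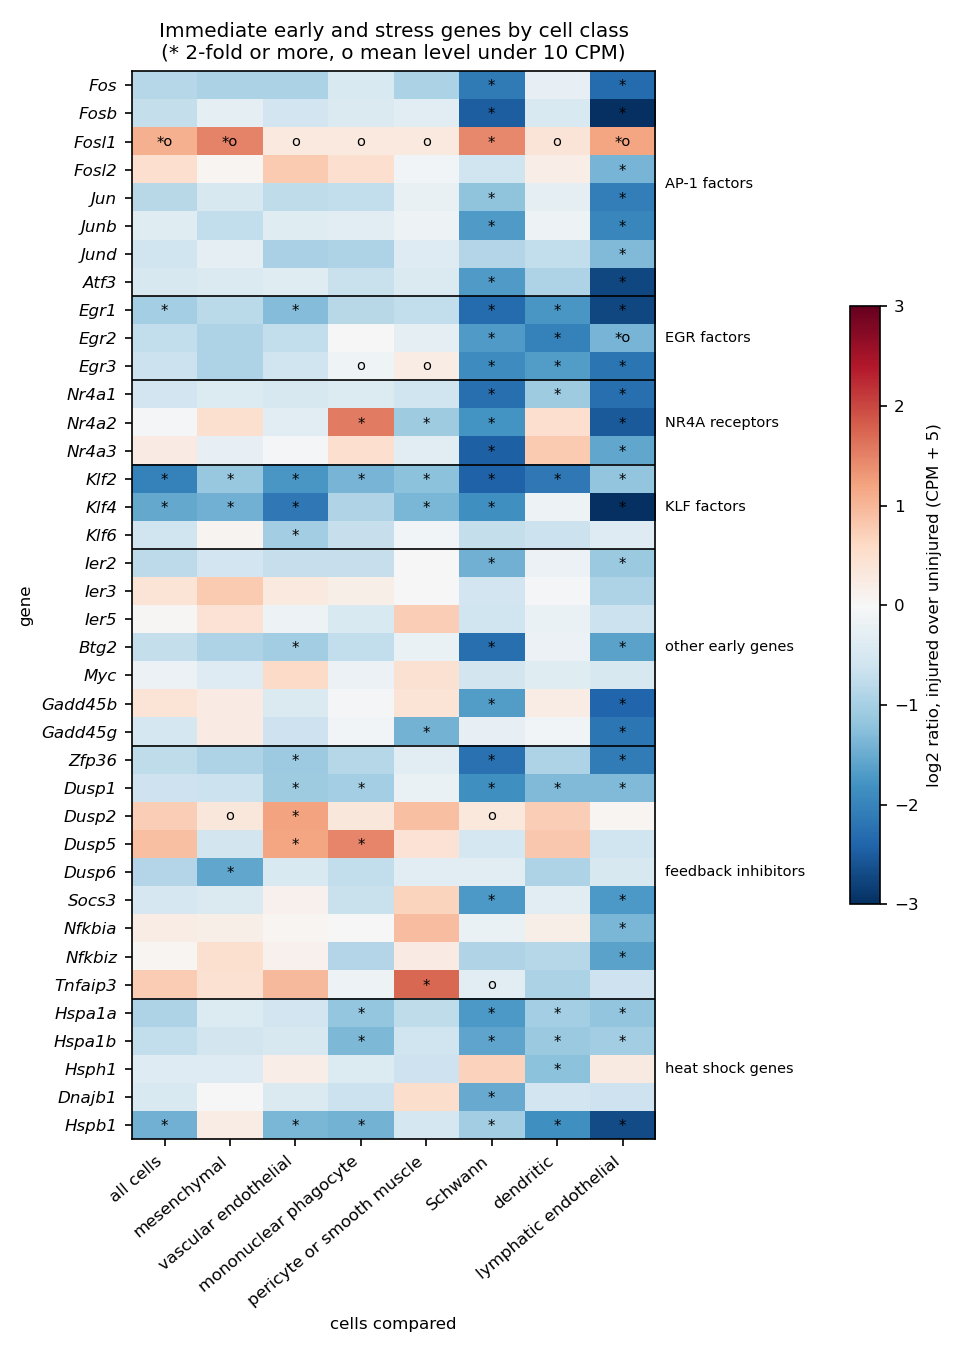
Heat map of the 38 genes (rows, by role) in all kept cells and 7 cell classes (columns). Colour is the log2 ratio injured over uninjured after adding 5 CPM, from −3 to 3, a star marks a ratio of 2-fold or more and a circle a mean level under 10 CPM; the lymphatic and Schwann columns hold 27 and 23 starred genes on the lower side.

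Several of these classes were made of different clusters of cells in the 2 libraries. Injured mesenchymal cells lay mainly in clusters led by Tnc and Cthrc1 (1115 injured, 7 uninjured cells) and by Sfrp2 and Col14a1 (799 and 4), and uninjured ones in a cluster led by Gsn, Clec3b and Pi16 (90 and 699). Uninjured vascular endothelium lay mainly in a cluster led by Timp4, Cd36 and Gpihbp1 (102 and 1098), and injured cells in one led by Plvap and Aplnr (529 and 164). Of the phagocytes, the cluster led by Ccl8, F13a1 and Retnla held 358 injured and 240 uninjured cells. Schwann cells divided into a cluster with Mbp among its leading genes (30 and 120) and one led by Csmd1 and Nkain2 (70 and 50). Lymphatic endothelium and dendritic cells were 1 cluster each, but the dendritic cells of the libraries differed in markers: Ccr7 was at 266 against 1.88 CPM, the 7 monocyte markers summed to 1172 against 2878 CPM, the 8 macrophage markers to 1088 against 1792 CPM and the 8 neutrophil markers to 269 against 5.17 CPM. The part of this in the dendritic differences was not tested.

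Among the AP-1 factors, the proteins that pair as FOS and JUN dimers, 6 of 8 genes had a ratio below 0 over all cells, and none passed 2-fold on the lower side. Fos was at 706 CPM in injured and 1287 CPM in uninjured cells, 1.82-fold lower (95% interval 1.81 to 1.84). It was lower in all 7 classes, from 832 against 992 CPM in dendritic cells and 1484 against 2033 in phagocytes to 461 against 895 in mesenchymal cells, 502 against 973 in vascular endothelium and 781 against 1525 in pericytes or smooth muscle. In Schwann cells Fos was at 1193 against 5186 CPM, 4.35-fold lower (4.15 to 4.55). In lymphatic endothelium it was at 197 against 994 CPM, 5.06-fold lower (4.62 to 5.54). Fos thus passed 2-fold in only these 2 classes.

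Fosb, a close relative of Fos, had the largest ratio of the 38 genes in any class after 5 CPM were added. In lymphatic endothelium it was at 39.1 CPM (126 UMIs) against 499 CPM (981 UMIs), 12.8-fold lower (10.6 to 15.5). In Schwann cells it was at 194 against 1094 CPM. Without that addition Egr3 in lymphatic endothelium, on 5 against 49 UMIs, had the larger ratio (16.1-fold, 6.44 to 51.7). Outside these classes the levels of Fosb were within 2-fold, 151 against 249 CPM over all cells.

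The JUN genes followed the same split. Junb was at 723 against 928 CPM over all cells, within 2-fold, and at 224 against 882 CPM in lymphatic endothelium and 656 against 2157 CPM in Schwann cells. Jun was at 368 against 657 CPM over all cells, 163 against 703 in lymphatic endothelium and 551 against 1287 in Schwann cells. In mesenchymal cells Jun was at 298 against 421 CPM, in vascular endothelium at 409 against 699, in phagocytes at 464 against 782, in pericytes or smooth muscle at 442 against 519 and in dendritic cells at 211 against 257. Jund, the JUN member that most cells express without stimulation, was at 591 against 894 CPM over all cells and passed 2-fold only in lymphatic endothelium, at 282 against 716 CPM. Atf3, a stress-induced repressor that dimerises with JUN, was at 137 against 193 CPM over all cells, 33.8 against 252 in lymphatic endothelium and 164 against 541 in Schwann cells.

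The 2 FOS-like antigens had the higher injured level over all cells. Fosl1 was at 11.4 CPM in injured and 2.83 CPM in uninjured cells over all classes, and in mesenchymal cells at 13.4 CPM (1477 UMIs) against 1.58 CPM (44 UMIs), 8.51-fold higher (6.31 to 11.8). Its injured level was also the higher in Schwann cells, at 17.6 against 3.26 CPM, and in lymphatic endothelium, where 32 UMIs stood against 3. These levels are low, with a mean of the 2 libraries under 10 CPM in every set but Schwann cells. Fosl2 was at 117 against 81.0 CPM over all cells and at 114 against 64.8 CPM in vascular endothelium, both within 2-fold. In lymphatic endothelium Fosl2 was lower, at 28.5 against 82.9 CPM.

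**Figure D2:**
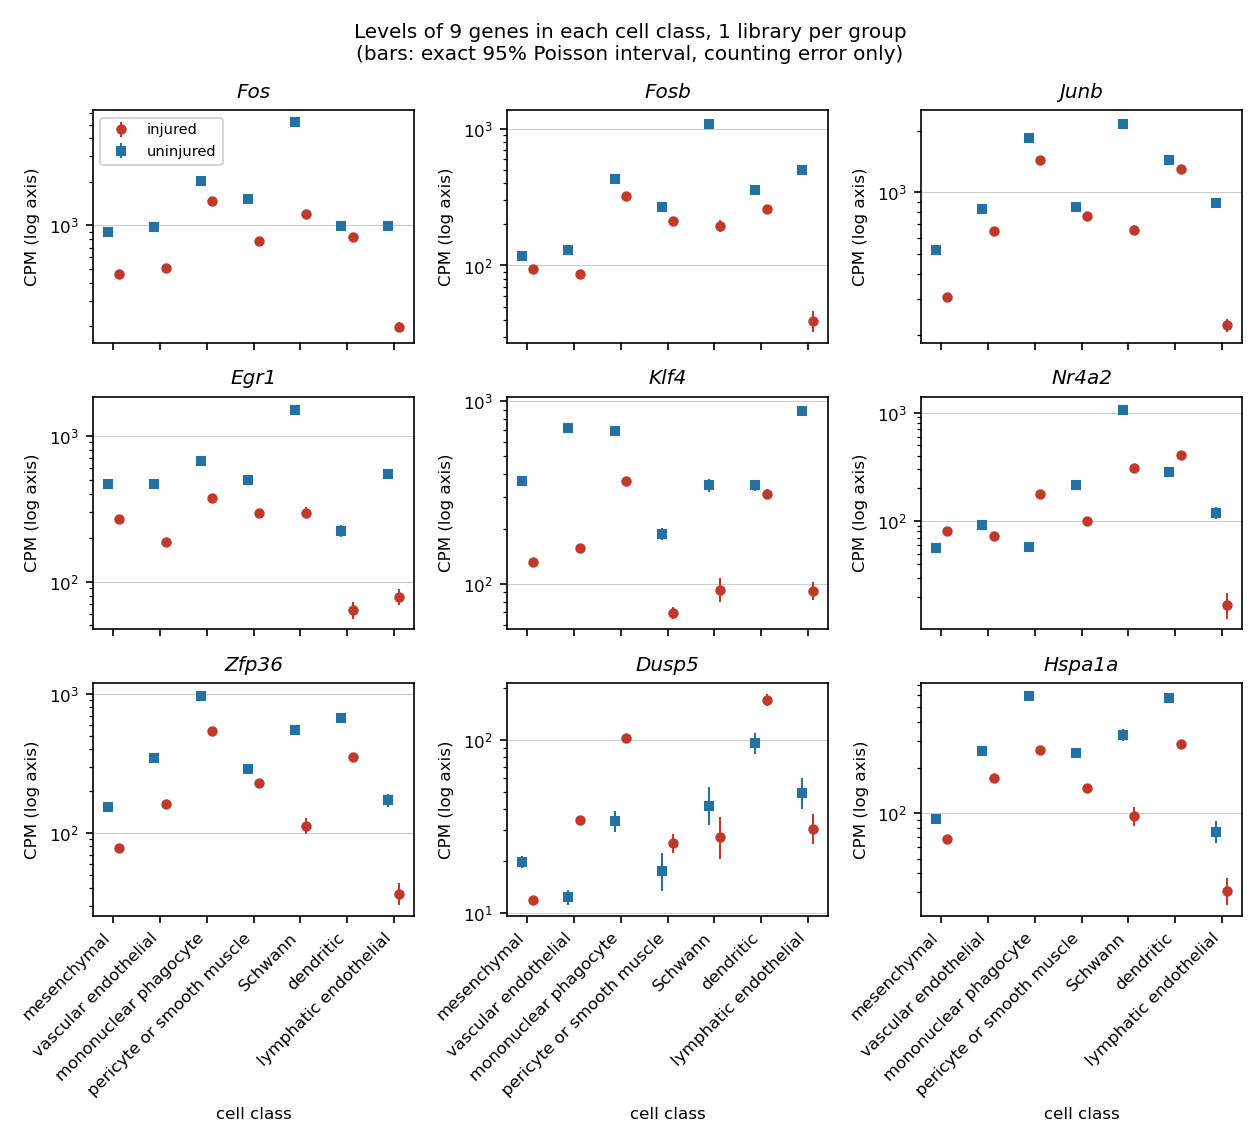
Levels of 9 of the genes in 7 cell classes, in CPM on a log axis, with points for the injured and the uninjured library and exact Poisson 95% intervals (counting error only). Fos, Fosb, Egr1, Klf4 and Zfp36 are lower in the injured library in all 7 classes shown, while Nr4a2 and Dusp5 are higher in injured phagocytes.

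Egr1, a zinc finger factor induced by growth factors and mechanical load, was at 288 against 585 CPM over all cells, 2.03-fold lower (2.01 to 2.05). It was lower in every class. The levels were 267 against 470 CPM in mesenchymal cells, 377 against 673 in phagocytes and 296 against 498 in pericytes or smooth muscle, all within 2-fold. They were 186 against 468 CPM in vascular endothelium, 63.6 against 223 in dendritic cells, 297 against 1504 in Schwann cells and 78.1 against 547 in lymphatic endothelium, where the difference was 7.00-fold (6.10 to 8.06). Egr2, the EGR factor that Schwann cells need to form myelin, was at 91.5 against 310 CPM in Schwann cells and at 16.2 against 81.8 CPM in dendritic cells, 5.04-fold lower (3.73 to 6.89). In lymphatic endothelium it rested on 3 against 21 UMIs, a ratio of 11.5 with a counting interval of 3.43 to 60.1. Egr3 was at 40.8 against 165 CPM in Schwann cells, 12.9 against 52.2 in dendritic cells and 1.55 against 24.9 in lymphatic endothelium (5 against 49 UMIs). Over all cells Egr2 was at 18.0 against 33.4 CPM and Egr3 at 14.5 against 25.5 CPM. In phagocytes both were nearly level, Egr2 at 42.4 against 41.8 CPM and Egr3 at 9.07 against 10.3 CPM.

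The NR4A receptors, orphan nuclear receptors that act without a known natural ligand, did not share 1 direction across classes. Nr4a1 was lower, at 129 against 193 CPM over all cells, 190 against 932 in Schwann cells, 22.0 against 125 in lymphatic endothelium and 211 against 449 in dendritic cells. Nr4a2 was at 104 against 106 CPM over all cells, but this covered opposite differences. In phagocytes it was at 177 CPM in the injured and 57.3 CPM in the uninjured library, 3.09-fold higher (2.77 to 3.46), or a log2 ratio of 1.55. With a mitochondrial limit of 5% and new clusters that ratio was 0.43, within 2-fold, and the NR4A median of phagocytes was −0.29 in place of 0.51; in the original clusters without cells above 5% the Nr4a2 ratio was 1.62. In Schwann cells it was at 305 against 1062 CPM, in pericytes or smooth muscle at 99.9 against 215 CPM, and in lymphatic endothelium at 16.7 against 120 CPM, 7.14-fold lower (5.29 to 9.78). In dendritic cells Nr4a2 and Nr4a3 had the higher level in the injured library, at 404 against 283 and 463 against 265 CPM, within 2-fold. Nr4a3 was at 53.4 against 44.6 CPM over all cells, and was lower in Schwann cells, at 21.2 against 139 CPM, and in lymphatic endothelium, at 2.79 against 17.8 CPM.

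The KLF factors held the widest differences over all cells, and Klf2 was the 1 gene at least 2-fold lower in all 7 classes. Klf2, a factor that endothelium expresses under laminar flow, was at 159 against 659 CPM over all cells, 4.15-fold lower (4.10 to 4.21). In vascular endothelium, its highest class in the uninjured library, it was at 359 against 1221 CPM, 3.40-fold lower (3.34 to 3.47). It was at 67.2 against 153 CPM in mesenchymal cells, 158 against 424 in phagocytes, 69.0 against 170 in pericytes or smooth muscle, 88.9 against 497 in Schwann cells, 71.9 against 336 in dendritic cells and 225 against 520 in lymphatic endothelium. Klf4 was at 186 against 550 CPM over all cells, at 157 against 711 in vascular endothelium (4.52-fold, 4.40 to 4.65) and at 92.1 against 884 in lymphatic endothelium (9.60-fold, 8.48 to 10.9). It was lower in mesenchymal cells (132 against 366 CPM), pericytes or smooth muscle (69.6 against 187) and Schwann cells (93.0 against 347), and within 2-fold in phagocytes (368 against 689) and dendritic cells (312 against 347). Klf6 was at 249 against 381 CPM over all cells and passed 2-fold in vascular endothelium alone, at 247 against 517 CPM.

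Of the 7 other early genes, none passed 2-fold over all cells. Btg2, an antiproliferative cofactor, was at 277 against 460 CPM over all cells and was at least 2-fold lower in vascular endothelium (254 against 528), Schwann cells (145 against 714) and lymphatic endothelium (114 against 354). Ier2 was at 146 against 255 CPM over all cells, 113 against 317 in Schwann cells and 76.9 against 173 in lymphatic endothelium. Ier3, a regulator of cell survival, had the higher level in the injured library, at 360 against 268 CPM over all cells and 195 against 111 CPM in mesenchymal cells, within 2-fold in both. Ier5 (117 against 114 CPM) and Myc (30.9 against 35.6 CPM) were nearly level over all cells and within 2-fold in every class. The stress sensor Gadd45b was at 238 against 179 CPM over all cells, but at 38.4 against 220 in lymphatic endothelium and 132 against 433 in Schwann cells. Gadd45g was at 129 against 189 CPM over all cells, at 138 against 376 in pericytes or smooth muscle (2.72-fold lower, 2.53 to 2.94) and at 30.7 against 156 in lymphatic endothelium.

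The feedback inhibitors divided into genes with lower and genes with higher injured levels, and their median over all cells was 0.06. Zfp36 was lower in every class. It was at 207 against 355 CPM over all cells, 161 against 346 in vascular endothelium, 113 against 553 in Schwann cells (4.89-fold, 4.21 to 5.69) and 36.6 against 172 in lymphatic endothelium. Its differences were within 2-fold in mesenchymal cells (78.2 against 154 CPM), phagocytes (539 against 974), pericytes or smooth muscle (229 against 287) and dendritic cells (351 against 675). Dusp1, the nuclear phosphatase of p38 and JNK, was at 296 against 457 CPM over all cells. It passed 2-fold in vascular endothelium (241 against 511 CPM), phagocytes (710 against 1442), dendritic cells (341 against 866), Schwann cells (87.3 against 326) and lymphatic endothelium (141 against 360). Dusp6, which acts on ERK, passed 2-fold in mesenchymal cells alone, at 12.1 against 45.2 CPM (3.72-fold, 3.45 to 4.02), and was at 37.3 against 72.9 CPM over all cells.

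Dusp2 and Dusp5, nuclear phosphatases of ERK, were higher in some classes. Dusp5 was at 102 against 34.1 CPM in phagocytes, higher by a ratio with an interval of 2.60 to 3.47, and at 34.5 against 12.3 CPM in vascular endothelium. Dusp2 was at 60.6 against 23.3 CPM in vascular endothelium. Over all cells Dusp5 was at 46.6 against 22.7 CPM and Dusp2 at 42.2 against 23.3 CPM, both within 2-fold once 5 CPM were added. In mesenchymal cells Dusp5 was at 11.9 against 19.8 CPM, and in lymphatic endothelium Dusp2 was nearly level, at 119.97 against 116 CPM. With a mitochondrial limit of 5% and new clusters, the log2 ratio of Dusp5 in phagocytes was 0.93 in place of 1.46, within 2-fold, and it was 1.33 in the original clusters without cells above 5%.

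The inhibitors of NF-kappaB and JAK signalling showed the same division. Nfkbia, which holds NF-kappaB in the cytoplasm, was at 525 against 451 CPM over all cells and 981 against 983 in phagocytes, but at 219 against 571 in lymphatic endothelium. Tnfaip3, a ubiquitin-editing enzyme that limits NF-kappaB, was at 61.5 against 34.3 CPM over all cells and at 47.1 CPM (499 UMIs) against 10.8 CPM (38 UMIs) in pericytes or smooth muscle, 4.35-fold higher (3.12 to 6.22). Nfkbiz was at 186 against 178 CPM over all cells and at 87.7 against 277 in lymphatic endothelium. Socs3, an inhibitor of cytokine receptors, was at 127 against 183 CPM over all cells, 225 against 756 in Schwann cells and 53.6 against 189 in lymphatic endothelium.

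Promoter stretches are shown for the members whose 250 bases before the start of transcription hold a site of SRF or CREB, the factors named above, and for Nfkbia as 1 example of an NF-kappaB site. Windows from RefSeq on mm10 were found for 32 of the 38 genes. None was found for Egr1, Egr3, Ier2, Myc, Fosl1 and Nfkbiz, so these were not searched. Sites more than 250 bases before a start were not searched in any gene. A gene with several windows was counted once if any of them held the site. A CArG box, the SRF site, was present on either strand in 1.62% of all 27025 genes with windows, and in Dusp5, Egr2 and Zfp36. TGACGTCA, the CREB site, which reads the same on both strands, was in 1.77% of genes and in Btg2 and Dusp1. A kappaB site was in 4.46% of genes and in Fos, Fosb, Fosl2, Ier3, Nfkbia and Tnfaip3. TGANTCA, the AP-1 site, was in 7.82% of genes and in Tnfaip3. Any link between these sites and the differences between the libraries was not tested. A match describes the letters in the window and is not evidence of binding. Capitals mark the match, and each stretch is written on the strand of its gene:
Dusp5 (chr19:53529058-53529087, + strand): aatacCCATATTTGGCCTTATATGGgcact
Egr2 (chr10:67537787-67537816, + strand): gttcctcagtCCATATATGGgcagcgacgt
Zfp36 (chr7:28379267-28379296, − strand): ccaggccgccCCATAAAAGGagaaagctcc
Btg2 (chr1:134079304-134079331, − strand): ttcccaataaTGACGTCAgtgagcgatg
Dusp1 (chr17:26508598-26508625, − strand): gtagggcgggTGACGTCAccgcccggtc
Nfkbia (chr12:55492657-55492686, − strand): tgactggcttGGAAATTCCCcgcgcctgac

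All 5 heat shock genes had a ratio below 0 over all cells, and 4 of 5 were at least 2-fold lower in Schwann and in dendritic cells, 3 of 5 in phagocytes and in lymphatic endothelium. Hspa1a, the stress-inducible HSP70 chaperone, was at 130 against 252 CPM over all cells. In phagocytes it was at 263 against 590 CPM, 2.24-fold lower (2.16 to 2.33), and it was at 285 against 579 in dendritic cells, 95.6 against 329 in Schwann cells and 30.4 against 75.3 in lymphatic endothelium. Its near copy Hspa1b was at 122 against 205 CPM over all cells, 215 against 557 in phagocytes, 246 against 537 in dendritic cells, 74.9 against 233 in Schwann cells and 41.9 against 91.0 in lymphatic endothelium. Both were within 2-fold in mesenchymal cells (67.6 against 91.8 and 79.8 against 120 CPM), vascular endothelium and pericytes or smooth muscle.

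The other chaperones varied more by class. Hspb1, a small heat shock protein, was at 189 against 523 CPM over all cells, at 388 against 1018 in vascular endothelium (2.62-fold lower, 2.57 to 2.67) and at 26.97 against 200 in lymphatic endothelium (7.43-fold, 5.88 to 9.48). It was also lower in phagocytes (6.62 against 25.9 CPM), in Schwann cells (53.8 against 116 CPM) and in dendritic cells (7 against 42 UMIs), while in mesenchymal cells it was at 68.4 against 57.6 CPM. Dnajb1, the HSP40 partner of HSP70, was at 43.5 against 61.3 CPM over all cells and passed 2-fold in Schwann cells alone, at 39.8 against 123 CPM. It was at 31.8 against 31.3 CPM in mesenchymal cells, 46.8 against 65.3 in vascular endothelium, 41.7 against 68.6 in phagocytes, 74.9 against 50.2 in pericytes or smooth muscle, 45.7 against 70.5 in dendritic cells and 31.0 against 50.3 in lymphatic endothelium. Hsph1, a nucleotide exchange factor of HSP70, was at 43.3 against 57.7 CPM over all cells, at 36.9 against 92.6 in dendritic cells, and had the higher injured level in Schwann cells, at 60.5 against 35.8 CPM, and in lymphatic endothelium, at 95.5 against 77.8 CPM.

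The HSF1 element is built of GAA units in alternating directions. Paired units, GAANNTTC or TTCNNGAA, were in the windows of 14.5% of all genes and of 7 members, among them 4 of the 5 heat shock genes. The full heat shock element of 3 units was in those of 0.514% of genes and of no member. The 250 bases before the starts of Hspa1a and Hspa1b were equal at 98.8% of positions. Of the 50-base words of their transcripts, 58.8% of those of Hspa1a and 62.3% of those of Hspa1b occur in the other gene, but none in the last 500 bases, the end that 3' libraries read. A match of each of the 4 genes is shown, the same letters in Hspa1a and Hspa1b and different letters in the others, with capitals on the match:
Hspa1a (chr17:34972243-34972270, − strand): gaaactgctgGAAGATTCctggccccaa
Hspa1b (chr17:34959325-34959352, − strand): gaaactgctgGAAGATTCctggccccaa
Hspb1 (chr5:135887792-135887819, + strand): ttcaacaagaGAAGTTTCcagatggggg
Hsph1 (chr5:149636352-149636379, − strand): ggtagaatctTTCTCGAAggctcgagaa

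Whether the lower level is shared by the role groups depended on the class. In lymphatic endothelium all 7 groups had a median ratio at or beyond 2-fold: −2.02 for AP-1, −2.19 for EGR, −2.27 for NR4A, −1.19 for KLF, −1.12 for the other early genes, −1.32 for the feedback inhibitors and −1.04 for the heat shock genes. There, 7 of 8 AP-1, 3 of 3 EGR, 3 of 3 NR4A, 2 of 3 KLF, 4 of 7 other early, 5 of 9 feedback and 3 of 5 heat shock genes were at least 2-fold lower. In Schwann cells the medians were −1.45 for AP-1, −1.89 for EGR, −2.27 for NR4A, −1.85 for KLF and −1.52 for heat shock genes, and smaller for the other early genes (−0.60) and the feedback inhibitors (−0.53). The 5 AP-1 genes past 2-fold in Schwann cells were Fos, Fosb, Junb, Jun and Atf3, and the 3 feedback genes were Zfp36, Dusp1 and Socs3.

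In dendritic cells the lower genes were in the EGR group (3 of 3, median −1.73) and the heat shock group (4 of 5, −1.11), with Klf2, Nr4a1 and Dusp1 besides, while no AP-1 gene passed 2-fold (median −0.26). In phagocytes the heat shock group had the lowest median (−1.15, 3 of 5 lower), followed by the KLF group (−0.90), and no AP-1 or EGR gene passed 2-fold. These 3 heat shock genes were within 2-fold in phagocytes with a Y-linked UMI, as given below. In mesenchymal cells, vascular endothelium and pericytes or smooth muscle the KLF group was lowest, at −1.13, −1.75 and −1.24, and again no AP-1 gene was 2-fold lower. The KLF group was thus the 1 group with a median below −0.60 in every class. The feedback group had a median above 0 in vascular endothelium (0.13) and in pericytes or smooth muscle (0.43), where it was −0.15 when each library was clustered alone.

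**Figure D3:**
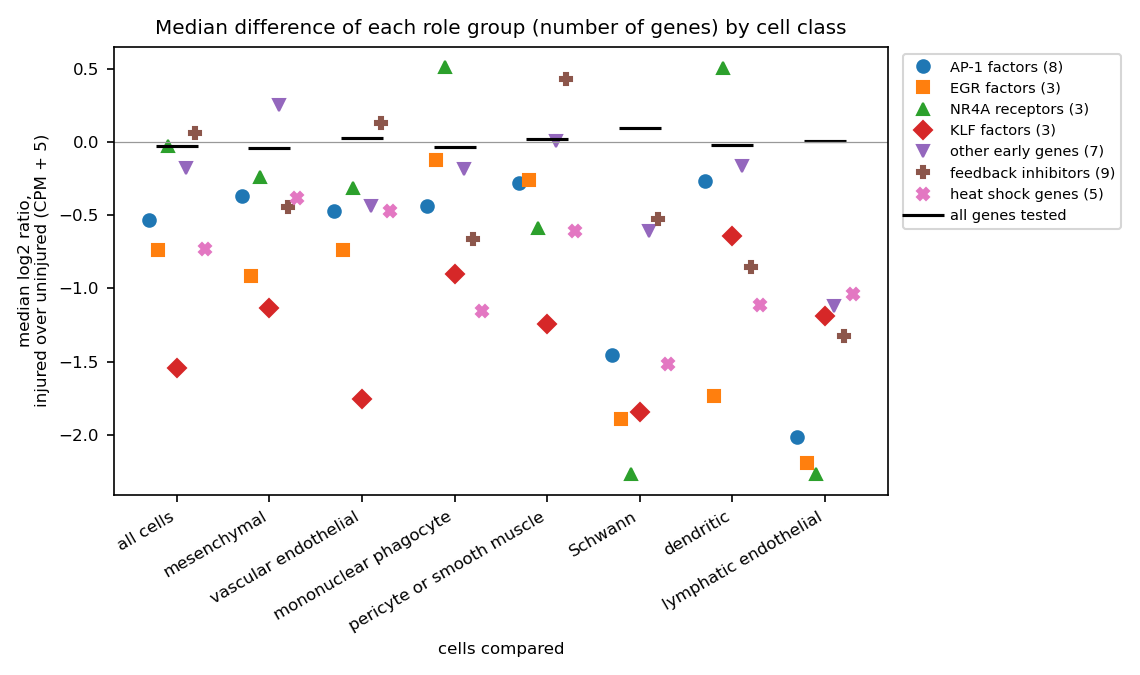
Median log2 ratio injured over uninjured of the 7 role groups (symbols) in all kept cells and 7 classes, with a dash for the median of all genes at a mean of 10 CPM or more. Schwann cells and lymphatic endothelium have every group below −0.50, while the AP-1 group lies above −0.50 in the other 5 classes.

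The AP-1 shift over all cells moved with depth. In cells of 10000 to 30000 UMIs, a range chosen after the data were seen, the AP-1 median was 0.11 over all cells and 0.01 in vascular endothelium, in place of −0.54 and −0.47. Injured cells were deeper in most classes, with medians of 44935 against 19181 UMIs in mesenchymal cells and 24633 against 14151 in vascular endothelium. In mesenchymal cells the AP-1 median in that range was −0.33, against −0.37 without it, and in dendritic cells −0.41 against −0.26. It was −0.12 against −0.28 in pericytes or smooth muscle, −0.90 against −1.45 in Schwann cells and −1.24 against −2.02 in lymphatic endothelium. In phagocytes, with medians of 13657 and 14833 UMIs, the AP-1 median in that range was −0.38, against −0.44 without it.

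Depth and mitochondrial share also differed in the 2 classes with the widest differences. Schwann cells had medians of 14589.5 against 7348.5 UMIs and 3.26% against 6.12% mitochondrial UMIs, and lymphatic cells 31875 against 17271 UMIs and 3.13% against 4.99%. Among Schwann cells under 10000 UMIs (42 injured, 121 uninjured), 5 of 38 genes were at least 2-fold lower, where 5.44% of all genes were, and the summed level was 19343 against 25600 CPM. Among those of 10000 to 30000 UMIs (35 and 47), 18 of 38 were lower (8.79% of all genes), at 7188 against 19177 CPM. Among those with 2.5% to 5% mitochondrial UMIs (66 and 46), 23 of 38 were lower (8.07%), at 7901 against 22570 CPM. The median ratio of the 38 genes was −0.50, −0.98 and −1.25 in these 3 sets, against −1.54 in all Schwann cells.

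In lymphatic cells of 10000 to 30000 UMIs (29 and 41), 22 of 38 genes were lower, against 6% of all genes, at 3386 against 7695 CPM. In those with 2.5% to 5% mitochondrial UMIs (49 and 31), 11 of 38 were lower (7.04%), at 3471 against 6304 CPM. The 12 uninjured lymphatic cells under 2.5% had 21445 CPM, against 2691 CPM in 25 injured cells. The 9 uninjured lymphatic cells with the most UMIs of the 38 genes, of 84, held 58.3% of these UMIs, while the corresponding 9 injured cells held 37.2%. With every cell given the same weight, 19 of 38 genes were at least 2-fold lower in lymphatic endothelium and 14 of 38 in Schwann cells. No share of all genes under that weighting is set beside these counts.

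Markers of the named types were present in both libraries. In Schwann cells Sox10 was at 225 against 210 CPM, and in lymphatic endothelium Prox1 was at 515 against 959 CPM and Lyve1 at 1213 against 951 CPM. Markers of other cell types moved with the comparison as well. In injured and uninjured lymphatic cells the 8 neutrophil markers summed to 180 against 54.4 CPM (2 and 7 of 8 at 0), the 8 macrophage markers to 214 against 104 CPM and the 11 fibroblast markers to 423 against 95.6 CPM. In Schwann cells the 7 satellite cell markers were all at 0 in the injured and summed to 67.1 CPM in the uninjured library, and the neutrophil list was at 83.7 against 140.7 CPM. The part of depth, of mitochondrial share, of RNA from other cells and of dissociation in the lower levels was not tested.

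Clusters with 50 or more cells of each library gave comparisons between more similar cells. In the vascular cluster led by Timp4, Cd36 and Gpihbp1, none of the 38 genes was 2-fold lower, against 0.48% of all genes, with Fos at 909 against 842 CPM and Egr1 at 567 against 447 CPM. In the vascular cluster led by Plvap, 9 of 38 were lower (2.69% of all genes): Klf4 was at 113 against 463 CPM, Egr1 at 143 against 539, Zfp36 at 105 against 354 and Fos at 372 against 1145. In that led by Selp and Ackr1, which marks venules, 5 of 38 were lower (3.19%), among them Klf4 at 233 against 665 CPM and Fos at 709 against 1687 CPM. There 2 of 38 were higher (2.51%), Hspa1a at 211 against 55.4 CPM and Hspa1b at 192 against 65.6 CPM. The lower level of the vascular class was thus found in some of its clusters and not in its main uninjured one.

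In the fibroblast cluster led by Gsn, Clec3b and Pi16, 2 of 38 were lower (2.03%), Hspa1a at 42.1 against 107 CPM and Nr4a2 at 17.9 against 42.8 CPM, while Klf2 (207 against 197 CPM) and Klf4 (585 against 494 CPM) were not. In a smaller fibroblast cluster led by Apod and Gpc3 (68 and 57 cells), 10 of 38 were lower (5.89%) and 5 higher (17.9%), with an AP-1 median of −1.02 and a heat shock median of 1.30. There Jun was at 315 against 880 CPM and Klf2 at 79.9 against 291 CPM, while Hspa1a was at 105 against 28.9 CPM. In the phagocyte cluster led by Ccl8 and F13a1, the 4 lower genes (2.55% of all genes) were all chaperones: Hspa1b at 228 against 651 CPM, Hspa1a at 244 against 662, Hspb1 at 4.23 against 20.9 and Hsph1 at 21.5 against 48.7. The 4 higher genes there (1.98%) were Dusp5, Nr4a2, Egr3 and Nr4a3, with Dusp5 at 51.5 against 12.4 CPM and Nr4a2 at 112 against 38.9 CPM. In the Schwann cluster led by Csmd1 and Nkain2, 28 of 38 were lower (13.8%), with Egr1 at 213 against 2203 CPM, Hspa1a at 104 against 878 and Fos at 728 against 3571.

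**Figure D4:**
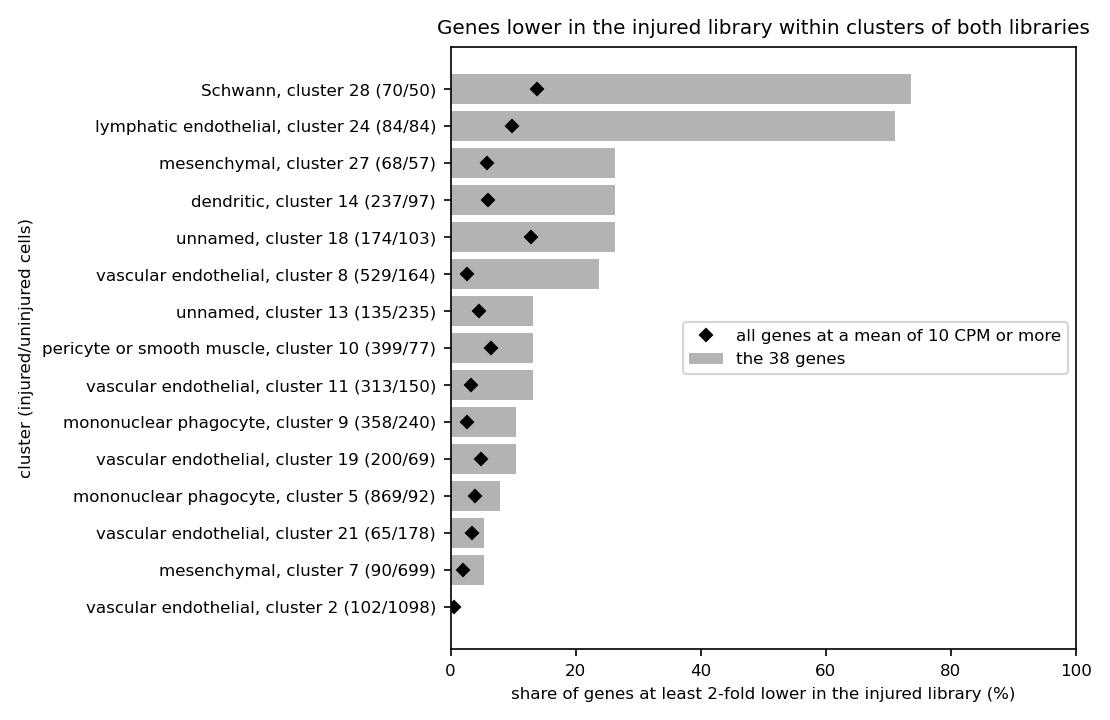
Share of the 38 genes at least 2-fold lower in the injured library (bars, percent) in the 15 clusters with 50 or more cells of each library, with diamonds for the share of all genes at a mean of 10 CPM or more. The bars range from 0 in the main uninjured vascular cluster to the 28 of 38 genes of a Schwann cluster.

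Counted per cell, the median was lower in the injured library in 6 of the 7 classes and equal in the other. Each cell of 5000 or more UMIs was thinned to 5000 UMIs, and the UMIs of the 38 genes were summed. The median Schwann cell held 22 UMIs in the injured (83 cells, 17 shallower cells left out) and 108 UMIs in the uninjured library (134 cells, 36 left out). For lymphatic endothelium the medians were 12 and 31 UMIs, for vascular endothelium 28 and 48, for phagocytes 59 and 89, for dendritic cells 49 and 61 and for mesenchymal cells 18 and 23. In pericytes or smooth muscle both medians were 33 UMIs. The ranges overlapped in every class: the 90th percentile of injured Schwann cells was 151.6 UMIs, above the uninjured median. Without thinning, the medians scaled to 5000 UMIs were 24.2 and 109 in Schwann cells and 11.6 and 40.1 in lymphatic endothelium.

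**Figure D5:**
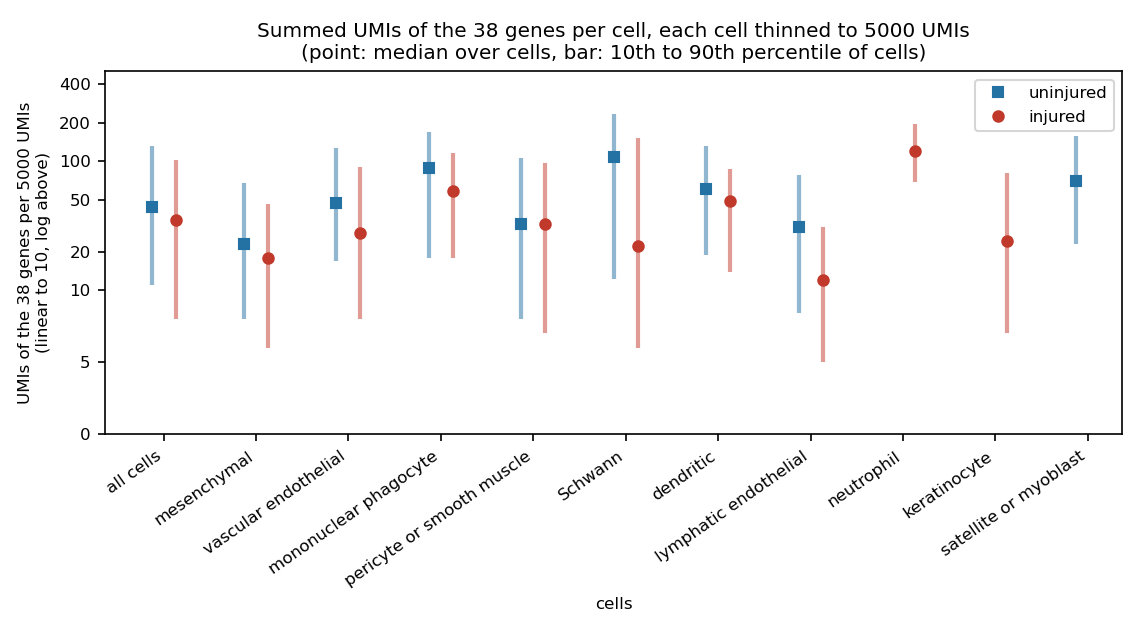
UMIs of the 38 genes per cell after thinning each cell to 5000 UMIs, by cell set and library, with the median as a point and a line from the 10th to the 90th percentile of cells. Medians are 22 and 108 in injured and uninjured Schwann cells, 12 and 31 in lymphatic endothelium, and 33 in both libraries for pericytes or smooth muscle.

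Across cell types within 1 library, the order of the levels also differed. Among uninjured classes of 50 or more cells, Schwann cells had the highest summed level (22046 CPM), followed by phagocytes (18042), satellite cells or myoblasts (14527) and dendritic cells (13793), and mesenchymal cells the lowest (6266). Fos was highest in uninjured Schwann cells, at 5186 CPM, then in satellite cells or myoblasts, at 2450 CPM, and phagocytes, at 2033 CPM, and next in pericytes or smooth muscle, at 1525 CPM, and myofibres, at 1200 CPM. Further down the order, lymphatic endothelium (994 CPM), dendritic cells (992) and vascular endothelium (973), had overlapping counting intervals. Among injured classes, neutrophils had the highest summed level (26389 CPM), followed by phagocytes (12420) and T or NK cells (12255), and lymphatic endothelium the lowest (3050).

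Levels differed widely between the genes in injured neutrophils. Junb was at 3754 CPM, Nfkbia at 3598, Ier3 at 1183, Fos at 1110 and Egr1 at 881, while Klf4 was at 45.1 CPM, below the counting interval of every other injured class, and Hspa1a at 29.7 CPM, within counting error of its 30.4 CPM in lymphatic endothelium. Only 4 uninjured neutrophils were kept, so no comparison was made for them. Of the 993 injured neutrophils 746 had fewer than 5000 UMIs, and the median of the others was 121 UMIs of the 38 genes after thinning. In T or NK cells of the injured library Junb was at 2167 CPM, Nr4a3 at 387 CPM and Dusp5 at 377 CPM.

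Genes of the same pathways that are not among the 38 were read from 8 lists of 110 genes. Of 23 further early genes, 14 were at least 2-fold lower in lymphatic endothelium (median −1.22), where 9.75% of all genes were, 8 in Schwann cells (8.71%) and 5 over all cells (6.17%). Over all cells the lowest were Klf9, a glucocorticoid-responsive KLF factor, at 141 against 491 CPM and Ccn2, a matricellular target of YAP, at 171 against 514 CPM, and the highest were Ptgs2, the inducible cyclooxygenase, at 78.9 against 15.4 CPM and Pim1 at 157 against 74.2 CPM. In mesenchymal cells Ccn2 was at 297 against 1460 CPM. Of 20 further feedback inhibitors, 2 were lower over all cells, near the 6.17% of all genes: Spry1 at 27.2 against 105.7 CPM and Spry4 with a log2 ratio of −1.60, both inhibitors of receptor tyrosine kinase signalling.

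The remaining lists had few genes past 2-fold over all cells. Of 8 AP-1 partners, which dimerise with FOS or JUN proteins or compete for their sites, none passed 2-fold over all cells (median −0.14). In lymphatic endothelium 3 of 8 were lower (9.75% of all genes) and 1 higher (10.2%), with a median of −0.45 and Maff at 40.6 against 133 CPM. In Schwann cells 2 of 8 were lower (8.71%) and 1 higher (10.7%), with a median of −0.66 and Mafk at 31.5 against 95.8 CPM. Of 15 upstream kinases and factors none passed 2-fold over all cells, and none of the 15 did in lymphatic endothelium. Of 19 further chaperones 1 was lower over all cells (6.17% of all genes), Cryab at 54.9 against 149.9 CPM, and the median was −0.02. In lymphatic endothelium their median was 0.44, with Hspe1 at 276 against 107 CPM. None of 10 ER stress genes passed 2-fold over all cells (median 0.31). Of 7 oxidative stress genes 2 were higher over all cells (median 0.66), where 4.52% of all genes were. They were the haem oxygenase Hmox1 at 241 against 48.5 CPM and the cystine transporter Slc7a11 at 97.2 against 18.0 CPM. In phagocytes Hmox1 was at 1116 against 432 CPM and Slc7a11 at 135 against 17.1 CPM. None of 8 p53 targets passed 2-fold over all cells, although Cdkn1a was at 39.4 against 252 CPM in lymphatic endothelium and 242 against 1019 CPM in Schwann cells, where the 8 genes summed to 549 against 1232 CPM.

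Both libraries held cells with Xist and cells with Y-linked UMIs, 3563 and 3481 in the injured and 2404 and 1520 in the uninjured library, so each held cells of both sexes and the mix differed. Klf2 in vascular endothelium was lower in both, at 384 against 858 CPM in cells with Xist and 318 against 1715 CPM in cells with a Y-linked UMI. Hspa1a in mesenchymal cells was not: it was at 42.9 against 119 CPM in cells with Xist and 82.5 against 45.7 CPM in cells with a Y-linked UMI. The heat shock median of mesenchymal cells was −0.38 over all of them and 0.58 in cells with a Y-linked UMI. In phagocytes with Xist (1136 injured, 272 uninjured) the log2 ratios were −1.42 for Hspa1a, −1.55 for Hspa1b and −1.64 for Hspb1. In phagocytes with a Y-linked UMI (1060 and 79) they were −0.17, −0.62 and −0.65, all within 2-fold.

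Some of the loci overlap other annotated genes. Fosl1, Jun, Junb, Jund, Atf3, Zfp36, Dusp1, Dusp5 and Hspa1a have an overlapping gene on the other strand, and Dusp1 also on its own strand. How the authors' counting treated strand and overlaps is not stated in the labels or file headers, so their values may include or lack reads of those neighbours.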

How the data were processed

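UMI counts per gene and barcode were taken from the 2 matrices the authors deposited, whole numbers made with Cell Ranger 5.0.1 on mm10, per the submitters' processing notes. Annotation release and cell calling are not given in the labels or headers. Kept were cells with 500 or more genes, at most 10% mitochondrial UMIs and a Scrublet score up to 0.2, a limit set after the data were seen because the automatic limits marked 1 and 3 cells; this removed 215 injured and 60 uninjured cells. Doublets may remain, and free RNA was not removed.

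Cells of both libraries were clustered together on log counts per 10000 UMIs (2000 variable genes without the 38 genes, the 110 related genes, sex-linked, immunoglobulin, haemoglobin, ribosomal and mitochondrial genes; 30 components, 15 neighbours, Leiden resolution 0.8, seed 1), giving 36 clusters. Each took the name of the marker list, of 21, with the highest mean log2 ratio and 3 or more markers in 10% or more of its cells. Rules set after the data were seen left a cluster unnamed when another class's list with 5 or more such markers reached 0.75 of the best score, and left haemoglobin genes out of the markers. Clusters were also left unnamed when shallow for their library with no marker of their own class among the 10 leading genes. The same held when those genes included more markers of another class, or when no list had a positive score. Tools were python 3.11.15, scanpy 1.11.5, scikit-learn 1.9.0, igraph 0.11.9, numpy 2.4.6, scipy 1.17.1, pandas 2.3.3 and matplotlib 3.10.9.

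For each library and class the UMIs were added up and given as CPM with exact Poisson intervals, and ratios with conditional exact intervals, at 95%. PCR copies are collapsed by UMI, and the intervals cover counting error only. With 1 library per group no test was made. Compared were classes and clusters that held at least 50 cells of each library. Every gene of the 38 is named with its levels over all cells. Within a class, up to 12 genes past 2-fold at a mean of 10 CPM or more are named, along with Fos, Jun, Egr1, Zfp36 and Dnajb1, and of each related list up to 2 genes at either end. Cdkn1a in lymphatic and Schwann cells and Hspe1 in lymphatic cells were named after their values were seen. The members and lists were chosen with earlier results of these data known. The calls and intervals were checked on simulated counts with known folds. These counts were drawn with counting error alone, so the check does not cover spread between cells, animals or preparations.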

Additional observations from a re-analysis of the deposited data

Results flagged for a closer look

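Nr4a2 differed in direction between cell classes: its log2 ratio injured over uninjured was 1.55 in mononuclear phagocytes and −2.52 in lymphatic endothelium, and neither 95% counting interval includes an equal level. With a mitochondrial limit of 5% the phagocyte ratio of Nr4a2 was 0.43, within 2-fold. Hspa1a and Hspa1b differed in direction between mesenchymal cells with Xist and those with a Y-linked UMI. The number of animals is not stated, so sex cannot be told apart from animal, and the split was not made within clusters. Hspa1a had a log2 ratio of −1.37 in cells with Xist and 0.79 in cells with a Y-linked UMI, and Hspa1b had −1.39 and 0.58. In cells with Xist, Hspa1b was at 55.7 CPM in the injured and 154 CPM in the uninjured library, and in cells with a Y-linked UMI at 97.2 and 63.3 CPM. There was 1 library per group, so none of these differences was tested.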

How the results depend on the processing

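The 93 ratios past 2-fold in a class or over all cells were recomputed 934 times under 12 alternatives and 3 more that were chosen after seeing the data (cells up to 5% or above 5% mitochondrial UMIs, and cells of 10000 to 30000 UMIs). They kept their direction in 933 and passed 2-fold in 838. The exception in direction was Egr3 in lymphatic endothelium, at 0.0141 with every cell weighted equally. Counts of the 38 genes that moved by over 1.5 times were as follows. With a pseudocount of 1 CPM, 2 were higher over all cells, 5 lower in mesenchymal cells and 2 higher in pericytes. With a mitochondrial limit of 5%, 5 were lower in mesenchymal cells and 0 higher in phagocytes, and with 20%, 3 were higher in pericytes. With every cell weighted equally, 8 were higher over all cells, 5 lower in vascular endothelium, 2 lower in pericytes, 14 lower and 0 higher in Schwann cells, and 0 higher in lymphatic endothelium. In cells with Xist, 0 were higher over all cells, 6 lower and 0 higher in mesenchymal cells, 4 lower in vascular endothelium and 3 higher in pericytes. In cells with a Y-linked UMI, 3 were higher over all cells, and 5 lower and 2 higher in mesenchymal cells. Up to 5% mitochondrial UMIs in the same clusters, 5 were lower in mesenchymal cells. Above 5%, 9 were lower (3.95% of all genes) and 0 higher (4.23%) over all cells, and 16 lower (5.94%) in mesenchymal cells. There 14 were lower (4.39%) and 1 higher (4.33%) in vascular endothelium, 15 lower (3.01%) in phagocytes and 2 lower (3.29%) in pericytes. In cells of 10000 to 30000 UMIs, 2 were lower (7.04% of all genes) and 4 higher (6.81%) over all cells, and 1 lower (3.08%) in mesenchymal cells. In that range 3 were lower (3.57%) and 4 higher (4.58%) in vascular endothelium. The counts were 3 lower (3.64%) in phagocytes, and 1 lower (5.31%) and 2 higher (5.82%) in pericytes. For the other alternatives the share of all genes is not set beside the counts. With the 38 and related genes used in clustering, 3 were lower in phagocytes, and with each library clustered alone 11 were lower in pericytes. Without genes under 10 CPM, 0 were higher over all cells, in mesenchymal cells and in lymphatic endothelium, since Fosl1 left the count. With classes weighted equally in place of all cells, 13 were lower and 0 higher. The other causes were not tested. Median-of-ratios scaling and keeping doublets moved no count by over 1.5 times. Medians of the role groups changed sign in 11 cases, none of them in Schwann cells or lymphatic endothelium. Lymphatic, Schwann, dendritic and pericyte cells gave no value under some of the subsets because fewer than 50 cells were left in a library. No paired analysis was possible because each group has 1 library, and no replicate could be left out.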
